A study of Homo sapiens with 8 samples.

Results

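The 10 genes described here encode the machinery that sets the level of beta-catenin and the DNA-binding factors through which it acts. They are APC, AXIN1, GSK3B, CSNK1A1 and BTRC of the destruction complex, CTNNB1, which encodes beta-catenin, and the TCF/LEF genes TCF7, TCF7L1, TCF7L2 and LEF1. They were taken by gene symbol from a table of 58735 genes, each matched 1 row, and all 10 had enough counts to be tested. Their mRNA was measured in Caco-2, a human colorectal carcinoma line used as a model of intestinal epithelium. The M2-exo treated group (3 libraries) received exosomes, small secreted vesicles, of the M2 macrophage type prepared from the monocytic leukaemia line THP-1, and the untreated group (3 libraries) received phosphate-buffered saline. Both groups carry the same line and the label wild type. No source used here states the exosome dose, the length of treatment or whether the replicates were separate cultures. The p-values therefore describe the spread among 6 libraries, and this spread may be technical.

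In cells without a Wnt signal, the scaffolds APC and AXIN1 hold beta-catenin while the kinases CSNK1A1 and GSK3B phosphorylate it, and the F-box protein BTRC then marks it for destruction. A Wnt signal stops this, beta-catenin accumulates, enters the nucleus and binds TCF/LEF proteins, which otherwise repress their target genes. In the intestine this pathway maintains the crypt stem cells. Caco-2 cells carry a truncating APC mutation, as many colorectal tumours do, so that the complex is impaired from the start. These libraries count mRNA and do not show the phosphorylation, stability or place of the proteins.

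Library totals ranged from 17408745 to 18184325 counts in treated cells and from 15608937 to 18324599 in untreated cells. Untreated 1 stood apart, with 4.16% of its counts from the mitochondrial chromosome, against 7.01% to 8.11% in the other libraries. Of 8 epithelial markers 6 had at least 1 CPM (counts scaled to library size), including EPCAM, CDH1, VIL1 and CDX2, whereas KRT20 and LGALS4 were near 0. KRT20 was at 0.132 CPM in treated and 0.0958 CPM in untreated cells, and LGALS4 at 0.132 CPM in treated and 0.232 CPM in untreated cells. Of 12 macrophage markers 3 had at least 1 CPM, namely CD14, CSF1R and LYZ. They averaged 6.68, 4.18 and 2.63 CPM in treated cells and 7.32, 3.43 and 4.12 CPM in untreated cells. CD68, TYROBP and CD33 were at 0 in every library. The 12 together summed to 11.8 to 17.1 CPM in treated cells and 13.4 to 19.4 CPM in untreated cells. T cells also use TCF7 and LEF1. Of 8 T-cell markers 1 had at least 1 CPM, namely CD8A, which averaged 1.45 CPM in treated and 1.78 CPM in untreated cells. CD2 and IL7R were at 0, and the sum of the 8 was 2.87 to 4.28 CPM in treated and 3.75 to 5.37 CPM in untreated cells. The 5 mesenchymal markers, mostly PDGFRA and COL1A1, summed to 67.7 to 92.2 CPM in treated and 65.6 to 77.3 CPM in untreated cells.

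The first question was how abundant each gene was. Levels are given in FPKM (counts scaled by gene length and by library depth), as deposited. Comparison between genes therefore rests on the gene length used, such as 10063 bases for TCF7 and 4414 for TCF7L1. In CPM, which leaves length out, TCF7 averaged 45.3 in treated and 47.2 in untreated cells. TCF7L1 averaged 25.0 and 24.6 CPM, the reverse of their order in FPKM. All 10 were expressed, between 2.95 and 28.8 FPKM over the 6 libraries. CTNNB1 led, followed by the kinases CSNK1A1 and GSK3B, then AXIN1, BTRC, TCF7L1, TCF7, TCF7L2, LEF1 and APC. CTNNB1 lay above 86.4% of the 15084 tested genes by mean FPKM, and APC above 44.2%. CTNNB1 was above CSNK1A1 in all libraries of each group, and GSK3B above AXIN1, with a ratio of means of 1.74. Neighbours from AXIN1 down to TCF7L2 were not set apart in either group. CSNK1A1 stood clear of GSK3B in treated cells only, TCF7L2 clear of LEF1 in untreated cells only, and LEF1 clear of APC in treated cells only, as descriptions of overlap with no test of the difference between groups.

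The loci, in the GRCh38 coordinates of the count table, are spread over 6 chromosomes. On chromosome 5 lie APC (ENSG00000134982, plus strand, 112707498 to 112846239), TCF7 (ENSG00000081059, plus strand, 134114711 to 134151865) and CSNK1A1 (ENSG00000113712, minus strand, 149492197 to 149551552). On chromosome 3 lie CTNNB1 (ENSG00000168036, plus strand, 41194741 to 41260096) and GSK3B (ENSG00000082701, minus strand, 119821323 to 120094417). AXIN1 (ENSG00000103126) lies on the minus strand of chromosome 16 from 287440 to 352673, BTRC (ENSG00000166167) on the plus strand of chromosome 10 from 101354033 to 101557321 and TCF7L1 (ENSG00000152284) on the plus strand of chromosome 2 from 85133410 to 85310388. TCF7L2 on chromosome 10 and LEF1 on chromosome 4 are placed below with their sequences.

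**Figure D1:**
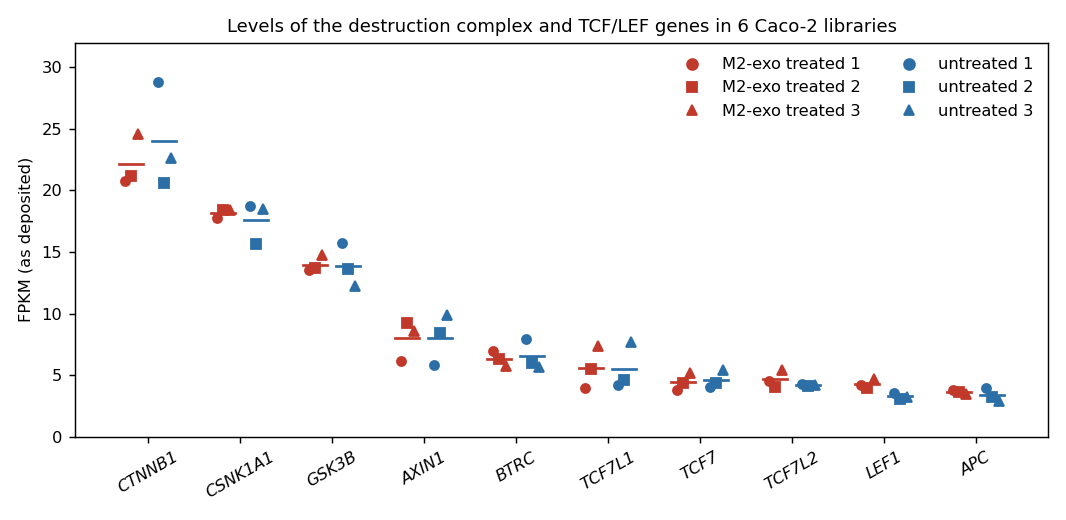
FPKM of each gene in each library (points; symbols give the library number, horizontal lines the group mean), with M2-exo treated libraries in red and untreated libraries in blue. Genes run from the highest mean, CTNNB1, to the lowest, APC; LEF1 is the gene whose red and blue points do not overlap.

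The second question was whether M2-exo treatment changed these mRNAs. No gene passed the adjusted threshold. By edgeR's quasi-likelihood test, 0 of the 10 were called higher and 0 lower, against 0 of 15084 tested genes in each direction (0%). By the same test 0 of the 10 had an unadjusted p under 0.05, against 0.736% of all tested genes, and DESeq2 and limma-voom also gave 0 of the 10. Calibrated p-values would put a fraction of about 0.05 there with no change at all, so p-values ran high in these libraries. Without untreated 1 there were 370 of 15564 such genes, and without untreated 3 there were 349 of 15438. The lack of calls therefore does not show that nothing changed. The median log2 fold change of the 10 was 0.01, and that of all tested genes -0.01. Of the 10, 6 lay above 0 and 4 below, where 47.1% of tested genes lay above 0. The 95% interval of every one of the 10 lay inside a 2-fold change in either direction, and that of 8, all but TCF7L1 and LEF1, inside a 1.5-fold change.

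**Figure D2:**
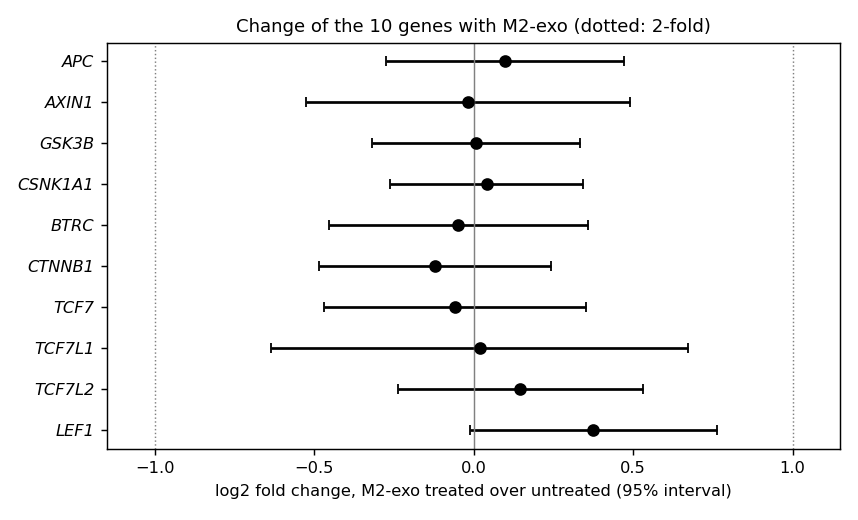
Log2 fold change of each gene, M2-exo treated over untreated, with its 95% interval from edgeR (3 libraries per group). All intervals include 0 and lie within the dotted 2-fold lines; the largest estimate is that of LEF1 at 0.38.

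Among the scaffolds, APC had 3.82, 3.65 and 3.47 FPKM in treated 1, 2 and 3, against 3.99, 3.26 and 2.95 FPKM in untreated 1, 2 and 3. The treated values lay inside the untreated range, and the log2 fold change was 0.10 (SE 0.17; 95% interval -0.27 to 0.47). AXIN1, the scaffold that brings kinases and substrate together, had 6.17, 9.23 and 8.56 FPKM in treated cells and 5.84, 8.46 and 9.88 FPKM in untreated cells. Library 1 of each group was the low one, and the log2 fold change was -0.02 (SE 0.23; -0.53 to 0.49).

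Of the kinases, CSNK1A1 (casein kinase 1 alpha), which adds the priming phosphate to beta-catenin, had 17.7, 18.4 and 18.4 FPKM in treated cells and 18.7, 15.6 and 18.5 FPKM in untreated cells. Its treated values lay close together, within the wider untreated range, and the log2 fold change was 0.04 (SE 0.13; -0.26 to 0.34). A same-strand transcript inside its locus, AC021078.1, held counts equal to 16.3% of those of CSNK1A1, so its level is less certain than its neighbours'. The retrocopy CSNK1A1L had no counts. GSK3B, which continues the phosphorylation, had 13.5, 13.7 and 14.8 FPKM in treated cells and 15.8, 13.6 and 12.3 FPKM in untreated cells. The untreated values surrounded the treated ones, with a log2 fold change of 0.01 (SE 0.14; -0.32 to 0.33).

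BTRC, the substrate receptor of the ubiquitin ligase, had 6.97, 6.32 and 5.78 FPKM in treated cells and 7.96, 6.01 and 5.70 FPKM in untreated cells. The groups overlapped, with a log2 fold change of -0.05 (SE 0.18; -0.45 to 0.36). CTNNB1, the substrate itself, had 20.8, 21.2 and 24.6 FPKM in treated cells and 28.8, 20.6 and 22.7 FPKM in untreated cells. Untreated 1 was its highest library, and the log2 fold change of -0.12 (SE 0.16; -0.48 to 0.24) became 0.04 without that library.

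Each of 3 members was also set against a paralog of like role, as a ratio of FPKM within a library. BTRC was the lesser of its pair: its ratio to FBXW11, a related F-box protein, was 0.411, 0.366 and 0.359 in treated cells and 0.420, 0.410 and 0.336 in untreated cells. AXIN1 had a ratio to AXIN2, a scaffold that is itself a Wnt target gene, of 0.622, 0.796 and 0.549 in treated cells and 0.505, 0.784 and 0.557 in untreated cells. In FPKM both ratios stayed below 1 in all 6 libraries. For AXIN1 this rests on gene length. In CPM, AXIN1 exceeded AXIN2 in treated 2 (69.2 against 60.7) and in untreated 2 (63.6 against 56.6). GSK3B was near parity with GSK3A in FPKM, with ratios of 1.18, 0.959 and 0.962 in treated cells against 1.58, 1.16 and 0.750 in untreated cells. The untreated libraries covered the whole treated range of this ratio. The parity rests on gene length. In CPM, GSK3B averaged 115 in treated and 114 in untreated cells, against 56.8 and 52.9 for GSK3A. In log2 terms the treated minus untreated differences were -0.03 for BTRC, 0.10 for AXIN1 and -0.11 for GSK3B. Each gave p = 0.9 after adjustment over the 3 ratios (exact 2-sided permutation test; the smallest p that 3 against 3 allows is 0.1). APC2, the paralog of APC, was low, at 0.707, 0.900 and 1.22 FPKM in treated and 0.467, 0.849 and 1.19 FPKM in untreated cells.

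Of the TCF/LEF genes, TCF7L2, a TCF of the intestinal epithelium, had 4.51, 4.06 and 5.46 FPKM in treated cells and 4.28, 4.16 and 4.20 FPKM in untreated cells. The untreated values were nearly equal, the treated ones lay on both sides of them, and the log2 fold change was 0.15 (SE 0.17; -0.24 to 0.53). TCF7L1, known mainly as a repressor, had 3.98, 5.54 and 7.34 FPKM in treated cells and 4.23, 4.65 and 7.71 FPKM in untreated cells. Library 3 was the high one in both groups, and the spread within each group (1.85-fold treated, 1.82-fold untreated) far exceeded the difference between them (log2 0.02, SE 0.29; -0.63 to 0.67). TCF7, best known from T cells, had 3.80, 4.39 and 5.22 FPKM in treated cells and 4.08, 4.40 and 5.44 FPKM in untreated cells, with overlapping groups (log2 -0.06, SE 0.18; -0.47 to 0.35). Its locus overlaps SKP1 on the opposite strand, which held 4186, 3775 and 3321 counts in treated and 4070, 3698 and 2803 in untreated cells, against 687, 770 and 952 counts of TCF7 in treated and 656, 795 and 985 in untreated cells. No source used here gives the strand setting of the counting, so reads of the overlap cannot be assigned and every level of TCF7 is uncertain.

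LEF1, a factor that in many tissues is itself induced by Wnt signals, was the 1 member whose groups did not overlap. It had 4.20, 3.98 and 4.69 FPKM in treated cells and 3.56, 3.08 and 3.26 FPKM in untreated cells. All 3 treated libraries lay above all 3 untreated ones, as they did in 1.65% of tested genes, and no member lay wholly below (2.3% of tested genes). The means were 4.29 ± 0.367 FPKM in treated cells and 3.30 ± 0.244 FPKM in untreated cells (SD, n = 3 each). The log2 fold change was 0.38 (SE 0.17; 95% interval -0.01 to 0.76), a 1.30-fold difference. It did not pass edgeR's quasi-likelihood test (adjusted p = 0.9999 over 15084 genes; unadjusted p = 0.0565, rank 135), and 89.4% of tested genes had a smaller change. Behind these values stood 404, 372 and 456 counts in treated and 305, 296 and 314 in untreated cells, where counting error alone is about 5.81% at the lowest count. The antisense transcript LEF1-AS1 held 7, 6 and 9 counts in treated and 2, 8 and 6 in untreated cells, or 1.77% of the counts of LEF1. Of the mesenchymal markers, VIM also had groups without overlap, at 0.957, 0.976 and 0.948 CPM in treated and 0.445, 0.503 and 0.506 CPM in untreated cells, which rest on 17 counts in each treated library and 7 to 9 in the untreated ones (log2 0.97, SE 0.40, not passing). PDGFRA had 53.7, 43.2 and 41.8 CPM in treated and 42.9, 34.7 and 29.4 CPM in untreated cells, with overlap (log2 0.37, SE 0.19, not passing). COL1A1 was at log2 -0.11 and PDGFRB at -0.05. COL1A2 had too few counts to test, with 2 in treated 1 and 0 in every other library. The part of these markers in the values of LEF1 was not tested. In bulk RNA a larger share of cells with LEF1 and more LEF1 mRNA per cell cannot be told apart.

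In the count table (GRCh38) LEF1 (ENSG00000138795) lies on the minus strand of chromosome 4 from 108047545 to 108168956 and TCF7L2 (ENSG00000148737) on the plus strand of chromosome 10 from 112950250 to 113167678. The 250 bases before a RefSeq start (GRCh38.p14) are printed for LEF1, because its libraries separated by group, and for TCF7L2 as its relative with overlapping groups. The LEF1 window, at chr4:108166302-108166551, ends at a start 2655 bases inside the 5′ end of the gene as the count table draws it, so it is an internal start. The TCF7L2 window, at chr10:112949997-112950246, ends beside the 5′ end of the gene. Capitals mark CTTTG or CAAAG, the core of the TCF/LEF recognition sequence on either strand.
LEF1: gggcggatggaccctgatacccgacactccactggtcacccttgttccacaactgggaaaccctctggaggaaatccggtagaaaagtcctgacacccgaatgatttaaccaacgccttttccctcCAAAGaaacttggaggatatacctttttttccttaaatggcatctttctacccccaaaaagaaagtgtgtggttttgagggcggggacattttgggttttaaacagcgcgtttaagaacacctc
TCF7L2: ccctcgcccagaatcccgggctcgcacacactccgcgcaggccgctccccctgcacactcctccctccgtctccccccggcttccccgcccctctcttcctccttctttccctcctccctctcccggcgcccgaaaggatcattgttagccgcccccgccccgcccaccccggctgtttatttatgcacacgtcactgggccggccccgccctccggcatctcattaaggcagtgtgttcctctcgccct
The LEF1 window holds the core 1 time and has 47.6% G and C, while the printed TCF7L2 window holds it 0 times at 68.0% G and C. The other windows of TCF7L2, at 2 internal starts, hold it 3 times at 42.4% and 1 time at 48.4% G and C, and no contrast between the genes is read from the printed pair. The core occurs in 42.1% of all 35116 windows of this length, so its presence is common. The longer motif CTTTGAT, searched on both strands as CTTTGAT or ATCAAAG and always containing the core, was in 0 of 14 windows of the 9 members with an entry, against 2.26% of all windows. These letters being absent from a window says nothing about binding elsewhere.

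A further question was whether the make-up of TCF/LEF mRNA shifted within a library, which needs no scaling between libraries. The 4 genes summed to 16.5, 18.0 and 22.7 FPKM in treated cells and 16.2, 16.3 and 20.6 FPKM in untreated cells. No single gene was dominant by this measure, which rests on gene length. TCF7, uncertain because of SKP1, is part of the sum and so enters all 4 shares. LEF1 made up 25.5%, 22.1% and 20.7% of the sum in treated cells and 22.0%, 18.9% and 15.8% in untreated cells. Its mean share was 22.8% ± 2.46 in treated and 18.9% ± 3.12 in untreated cells (SD, n = 3 each), and the groups overlapped (p = 0.2, adjusted 0.4; exact 2-sided permutation test over 4 shares). TCF7 made up 23.1%, 24.4% and 23.0% in treated cells and 25.3%, 27.0% and 26.4% in untreated cells. All 3 treated shares lay below all 3 untreated ones, a difference of -2.75 percent points (exact permutation p = 0.1, the smallest that 3 against 3 allows; adjusted 0.4), and the uncertainty from SKP1 applies here too. TCF7L1 held 29.1% ± 4.37 in treated and 30.7% ± 5.92 in untreated cells, and TCF7L2 held 24.7% ± 2.44 in treated and 24.1% ± 3.29 in untreated cells. Neither share differed beyond the spread between libraries (adjusted p = 0.9 each, exact permutation test).

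**Figure D3:**
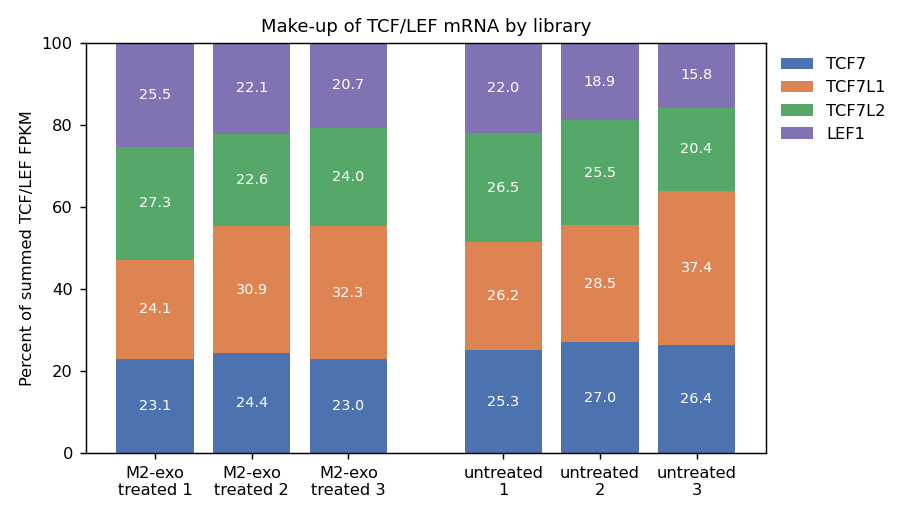
Share of TCF7, TCF7L1, TCF7L2 and LEF1 in their summed FPKM in each library, M2-exo treated libraries on the left and untreated libraries on the right. Each gene holds between 15.8% and 37.4% of the sum, both extremes lying in untreated 3 (LEF1 and TCF7L1).

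The variation between libraries of 1 group was larger than the difference between groups for most members. The log2 fold change was smaller than the log2 range of the 3 untreated libraries in 8 of 10 members and than that of the 3 treated libraries in 9 of 10. The exception to both was LEF1, and TCF7L2 was the exception for the untreated libraries, whose range was only 1.04-fold. The same counts were not made over all tested genes. A range over 3 libraries tends to exceed a difference of means where nothing changes, so the counts show nothing particular to the members. Untreated 1 was the highest or the lowest of the 6 libraries in 6 members and untreated 3 in 6, against 59.6% and 53.1% of all tested genes. APC, GSK3B, CSNK1A1, BTRC and CTNNB1 were highest in untreated 1, and AXIN1, TCF7 and TCF7L1 in untreated 3. The ratio of untreated 3 to untreated 1, on TMM-scaled CPM, was 0.714 for BTRC, 0.738 for APC and 0.776 for GSK3B but 1.69 for AXIN1 and 1.82 for TCF7L1. Untreated 1 also had the low mitochondrial share (4.16%), whereas that of untreated 3 was 7.01%. The part of this share in the values was not tested.

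**Figure D4:**
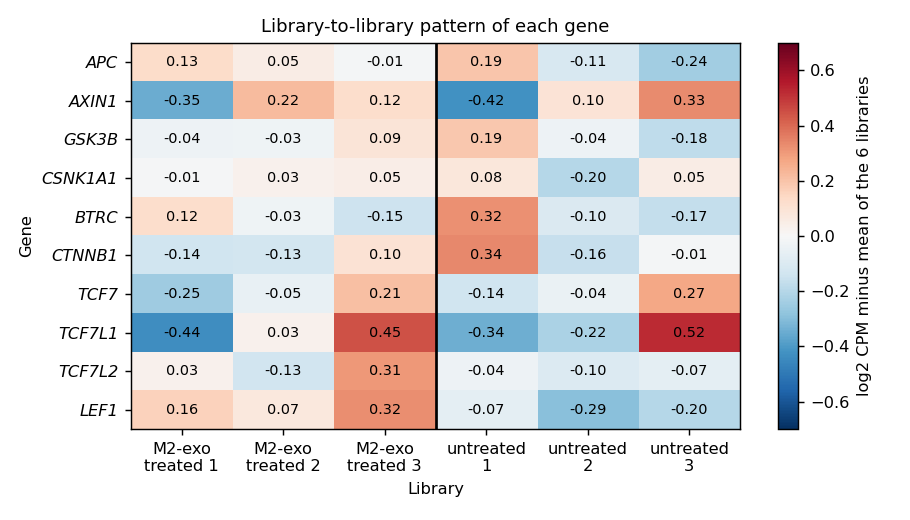
Log2 CPM of each gene in each library minus its mean over the 6 libraries (TMM-scaled; red above, blue below the mean), with M2-exo treated libraries left of the black line. Untreated 1 and untreated 3 lie on opposite sides of the mean for APC, AXIN1, GSK3B, BTRC, CTNNB1, TCF7 and TCF7L1, most strongly for AXIN1 and TCF7L1. LEF1 is above its mean in the treated libraries and below it in the untreated ones.

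The rest of the pathway gave the same count of calls, 0 in each of 6 lists in each direction by edgeR's test. The lists share some genes, such as AXIN2. For the genes named below with non-overlapping groups, the shares over all tested genes were 1.65% wholly higher and 2.3% wholly lower in treated cells. Among 28 partners of the destruction complex, all tested, 8 lay above 0 and 20 below (median log2 -0.01). PPP2R5D, a regulatory subunit of the phosphatase PP2A, had non-overlapping groups, at 45.7, 45.8 and 50.6 CPM in treated and 43.8, 43.1 and 45.3 CPM in untreated cells (log2 0.10, SE 0.14). Among 23 nuclear partners, 14 lay above 0 and 9 below (median 0.03). CTNNBIP1, an inhibitor of the binding of beta-catenin to TCF, averaged 19.7 ± 2.27 CPM in treated and 22.8 ± 4.27 CPM in untreated cells. The corepressor TLE3 averaged 77.6 ± 12.0 CPM in treated and 68.2 ± 24.9 CPM in untreated cells, and the groups of both genes overlapped.

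Upstream, 18 of 20 receptors and regulators were tested (8 above 0, 10 below; median -0.02). FZD9, a Frizzled receptor, had 1.63, 2.81 and 3.01 CPM in treated and 0.699, 1.45 and 1.58 CPM in untreated cells, so its groups did not overlap (log2 0.99, SE 0.41). In edgeR's quasi-likelihood fit across all genes its adjusted p = 0.9999 (unadjusted p = 0.0377). It was the 1 gene of the 6 lists with an unadjusted p under 0.05, at a level near the lower limit of testing. Of 31 ligands and secreted modulators only 14 had enough counts to test, and 7 had none in any library (6 above 0, 8 below; median -0.02). WNT5A, a ligand that mostly signals without beta-catenin, had 5.80, 4.02 and 4.24 CPM in treated and 3.87, 3.47 and 2.98 CPM in untreated cells (log2 0.45, SE 0.26).

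At the junction, where beta-catenin links cadherins to actin, 8 of 10 partners were tested (3 above 0, 5 below; median -0.04). CDH3, P-cadherin, had 199.6, 195.2 and 208.8 CPM in treated and 209.2, 227.5 and 248.1 CPM in untreated cells, with no overlap (log2 -0.18, SE 0.13, not passing). Of 20 TCF/LEF target genes 18 were tested (8 above 0, 10 below; median -0.02). None had groups without overlap, against 1.65% of all tested genes wholly higher and 2.3% wholly lower, so a list this short shows nothing particular. At a mean of at least 1 CPM, the largest differences among them were those of SMOC2, at 6.40 ± 2.84 CPM in treated and 8.25 ± 0.440 CPM in untreated cells, and of PROX1, at 17.2 ± 5.31 CPM in treated and 14.6 ± 2.71 CPM in untreated cells. AXIN2, a direct target widely used as a readout of the pathway, had 9.92, 11.6 and 15.6 FPKM in treated and 11.6, 10.8 and 17.8 FPKM in untreated cells (log2 -0.12; 95% interval -0.65 to 0.42).

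**Figure D5:**
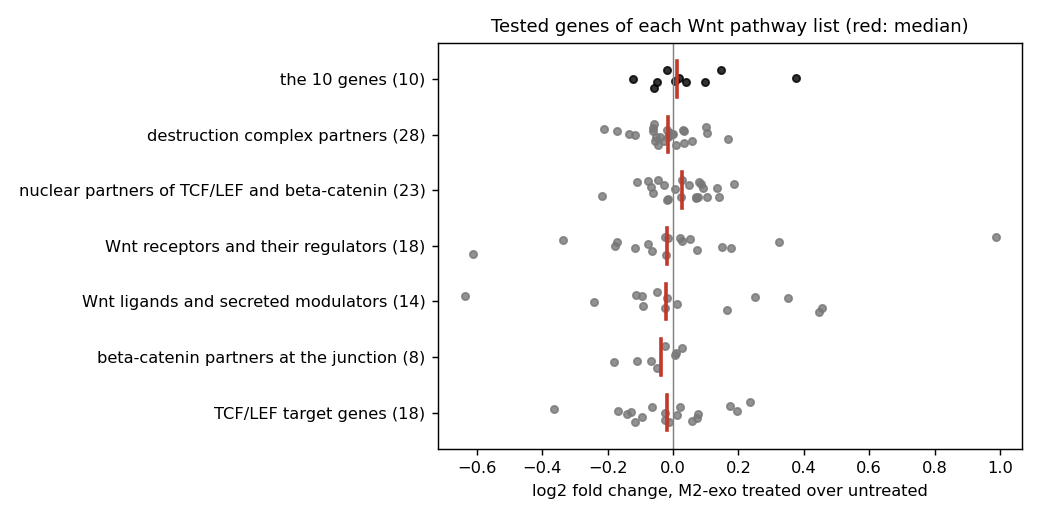
Log2 fold change, M2-exo treated over untreated, of the 10 genes (black) and of the tested genes of 6 Wnt pathway lists (grey; the number tested in parentheses, red lines at the medians). Medians lie between -0.04 and 0.03, and FZD9 is the point at 0.99.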

How the data were processed

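RNA of Caco-2 cells was measured in 3 M2-exo treated and 3 untreated libraries. The authors deposited whole-number read counts per gene and FPKM values. Per the submitters' processing notes, the tools were CASAVA, HISAT2 and featureCounts and the build GRCh38; no source used here gives their versions. FPKM as deposited equals each count divided by gene length and a constant per column. A total of 6 columns, 3 of counts and 3 of FPKM under the same headings of Caco-2 and M0 exosomes, match no sample and were not used. With saline as the only control used, an effect of any exosome cannot be told apart from one of the M2 type. Replicate libraries differed by more than sampling noise.

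Counts were tested with edgeR 4.0.16 (R 4.3.3): filterByExpr, TMM scaling, quasi-likelihood F test, 2-sided, Benjamini-Hochberg adjustment at 0.05 over 15084 genes. The same test was also run on simulated counts, drawn for each gene separately, without shifts shared by many genes of 1 library. That run therefore does not show whether p-values are calibrated in these libraries. CPM values are TMM-scaled. Shares and ratios were taken on FPKM and compared by exact permutation tests. SE is the size of the log2 fold change over the square root of F. Alternatives used DESeq2 1.42.0 and limma 3.58.1. Intervals cover the spread between these libraries.

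Members and lists were chosen with earlier results of these data known. From each list, the text names up to 2 genes in each direction with non-overlapping groups and a mean of at least 1 CPM, or otherwise the largest changes, plus paralogs of members; overlapping loci and AXIN2 were added after their values were seen. All 132 list memberships were matched, 1 of them by Ensembl identifier. Protein sequences were not used here.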

Additional observations from a re-analysis of the deposited data

How the results depend on the processing

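All 15 alternatives gave 0 calls among the 10 members in each direction, and LEF1 kept a positive log2 fold change in each, from 0.30 to 0.44 (adjusted p 0.957 to 1.00). Its unadjusted p was under 0.05 in 2 of them, with genes of a mean CPM of at least 1 (0.0410) and without untreated 1 (0.0240). Over all genes, testing without a filter gave 3 higher and 3 lower calls in place of 0 and 0. Leaving out 1 library gave 0 to 1 higher calls, the 1 being BOLA2B without treated 2, and 0 lower calls. Same-numbered libraries deviated together for numbers 1 and 3 (correlations 0.33 and 0.55, highest with another number 0.22 and -0.04) but not for number 2 (-0.08, against 0.22). These correlations do not settle whether the libraries were paired, and the main fit did not take the numbers as pairs. The fit with the replicate block called 0 higher and 0 lower, with LEF1 at 0.37. By edgeR's test it put 211 genes at an unadjusted p under 0.05, against 111 in the main fit.

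Directions of members near 0 were not stable. With total counts GSK3B was at -0.0015. Leaving out 1 library at a time, the log2 fold change ran from -0.19 to 0.17 for AXIN1, -0.058 to 0.12 for GSK3B, -0.023 to 0.10 for CSNK1A1, -0.12 to 0.12 for BTRC, -0.20 to 0.041 for CTNNB1, -0.17 to 0.087 for TCF7 and -0.21 to 0.35 for TCF7L1. It stayed positive for APC (0.02 to 0.24), TCF7L2 (0.03 to 0.24) and LEF1 (0.32 to 0.44). Differences in share ran from -3.24 to -2.35 percent points for TCF7, -3.87 to 1.75 for TCF7L1, -1.36 to 1.70 for TCF7L2 and 2.28 to 5.41 for LEF1. Differences in log2 ratio ran from -0.13 to 0.027 for BTRC to FBXW11, -0.048 to 0.29 for AXIN1 to AXIN2 and -0.39 to 0.14 for GSK3B to GSK3A. The cause was not tested. With CPM in place of FPKM the difference between groups in every share kept its direction. The differences in log2 ratio cannot change with that choice, because gene length cancels between the groups.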
